A study of Arabidopsis thaliana with 8 samples.

Results

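Brassinosteroids are growth hormones of plants, and 10 Arabidopsis thaliana genes of their supply and sensing were compared across 3 genotypes. The genes were named by locus: DWF1 (AT3G19820), DET2 (AT2G38050), DWF4 (AT3G50660), CPD (AT5G05690), ROT3 (AT4G36380), BR6OX1 (AT5G38970) and BR6OX2 (AT3G30180) of synthesis, BAS1 (AT2G26710) of inactivation, the receptor BRI1 (AT4G39400) and the kinase BIN2 (AT4G18710). Of these 10 genes, 9 were among the 18855 genes listed, and BR6OX1 was not analysed here. The study measured RNA of seedlings, 12 days old, without any treatment, in 8 libraries. The genotypes were: SPCHΔ49 basl-2, which carries 35S:SPCHΔ49 in the basl-2 mutant (n = 3), SPCHΔ49, which carries 35S:SPCHΔ49 in a wild-type background (n = 3), and WT (n = 2). SPCH (SPEECHLESS), a transcription factor, starts the stomatal lineage, and its SPCHΔ49 form lacks a stretch that kinases mark for destruction of the protein. The 35S promoter is active in most plant tissues, so SPCHΔ49 is not limited to the cells that normally make SPCH. BASL is a polarity protein of dividing stomatal lineage cells. No basl-2 library without the transgene was analysed here, so basl-2 was seen only together with SPCHΔ49, and the labels do not say whether both overexpressors hold the same insertion.

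Brassinosteroids are made from the plant sterol campesterol by a reductase and a series of cytochrome P450 enzymes, and other P450 enzymes and transferases inactivate them. At the cell surface the receptor kinase BRI1 binds the hormone and, through further kinases and phosphatases, turns off BIN2, a GSK3-like kinase that otherwise inactivates the transcription factors BZR1 and BES1. Active BZR1 and BES1 drive growth genes and lower the transcripts of several synthesis genes, and in the stomatal lineage BIN2 phosphorylates both SPCH and the kinases that act on SPCH.

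Values are the deposited signal per gene and library, on a per-length scale that the authors named TPM. Library totals ran between 852202 and 1075376 and library medians between 12.3 and 13.6, and the read depth behind the values is unknown. Total SPCH signal was 407 ± 74.9 in SPCHΔ49 basl-2, 2491 ± 136 in SPCHΔ49 and 6.92 ± 1.80 in WT (SD), so the overexpressors differed in SPCH signal as well as in basl-2. BASL had 2.74 ± 0.581 in SPCHΔ49 basl-2, 51.0 ± 13.6 in SPCHΔ49 and 3.43 ± 0.127 in WT. Root markers differed between the overexpressors and WT: the 12 listed summed to 6.27 to 10.2 in SPCHΔ49 basl-2 and 5.66 to 6.80 in SPCHΔ49, against 197 to 225 in WT, with EXPA18 at 0 in every overexpressor library. All 12 fell in both comparisons with WT. Each listed gene has a signal of 1 or more in every library of at least 1 genotype, and of these 12 only PHO1 has this in an overexpressor. The others are listed through WT alone, so the way genes were listed favoured their fall. Sums of the 10 listed vascular markers were 125 to 176 in SPCHΔ49 basl-2 and 123 to 152 in SPCHΔ49, against 233 to 245 in WT. The 8 leaf mesophyll markers summed to 57160 to 80190 in SPCHΔ49 basl-2 and 44945 to 64262 in SPCHΔ49, against 65633 to 68706 in WT, and 4 and 5 of them fell. The 10 stomatal lineage markers, which include SPCH and BASL, summed to 535 to 672 in SPCHΔ49 basl-2 and 3016 to 3417 in SPCHΔ49, against 78.1 to 95.6 in WT, and 6 and 9 of them rose. SPCH itself, which the transgene overexpresses, is among those that rose and makes up most of the sum in every overexpressor library. In SPCHΔ49 basl-2 2 of the 10, POLAR and BASL, lay below WT in every library. The part of these markers in the results below was not tested, and in bulk samples fewer cells of a type cannot be told apart from less RNA per cell. Whether replicates came from separate sowings is not in the labels. The p-values set each difference only against the spread of these libraries, and that spread may be technical.

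The levels of the 9 genes spread widely in every genotype. By mean signal the order was CPD, DWF1, BIN2, BRI1, DET2, BAS1, DWF4, BR6OX2 and ROT3 in both SPCHΔ49 basl-2 and SPCHΔ49. In WT the order was DWF1, CPD, BIN2, BRI1, DET2, ROT3, DWF4, BR6OX2 and BAS1. Within each library CPD lay above DWF1 in all 6 overexpressor libraries and below it in both WT libraries. The ranges of CPD and DWF1 over libraries overlapped in SPCHΔ49 and in WT, and not in SPCHΔ49 basl-2. The ranges of the 4 lowest genes overlapped with those of their neighbours in both overexpressors. In WT DWF4 and BR6OX2 overlapped, and ROT3 lay above them and BAS1 below. ROT3 is thus 6th of 9 in WT and last in both overexpressors, while BAS1 is last in WT and 6th in both.

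**Figure D1:**
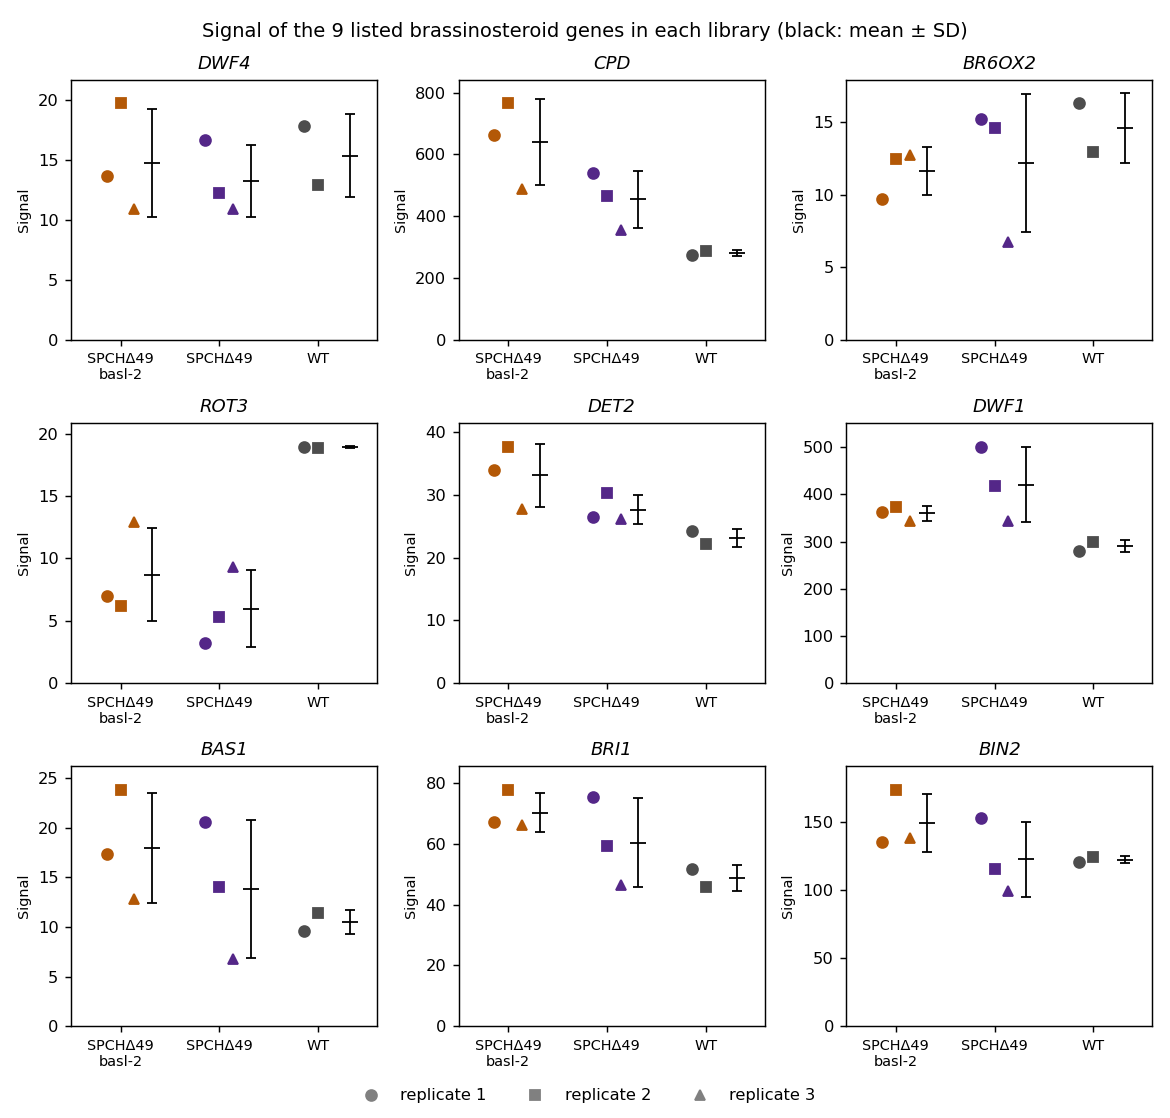
Signal (linear axis starting at 0, per-length units as deposited) of the 9 listed genes in the 8 libraries, with one panel per gene, one symbol per library and the mean ± SD in black (n = 3, 3 and 2). CPD, DET2 and DWF1 lie above both WT libraries in every overexpressor library, and ROT3 lies below both.

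Differences were tested with limma on log2(signal + 1) across all 18855 genes, with Benjamini-Hochberg adjustment over all of them and a threshold of 0.05 for the adjusted p. The added 1 makes the differences of low genes appear smaller than they are.

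DWF1 and DET2 act early. DWF1 is the sterol reductase that yields campesterol, and its signal was 363, 374 and 343 in SPCHΔ49 basl-2, 501, 417 and 343 in SPCHΔ49, and 281 and 299.6 in WT. Every overexpressor library lay above both WT libraries, and the overexpressors overlapped with each other. Means were 360.2 ± 15.7 in SPCHΔ49 basl-2, 420.5 ± 79.1 in SPCHΔ49 and 290.2 ± 13.2 in WT. The log2 difference from WT was 0.31 (SE 0.16) in SPCHΔ49 basl-2 and did not pass in limma (adjusted p = 0.166), and DWF1 rose in SPCHΔ49 by 0.52 (SE 0.16, adjusted p = 0.0476). That call held only without SPCHΔ49 replicate 3: the adjusted p was 0.17 and 0.243 without a WT library, 0.0862 and 0.12 without SPCHΔ49 replicates 1 and 2, and 0.0559 to 0.0794 without a SPCHΔ49 basl-2 library. It was also lost under median ratio scaling (0.050004), with genes of a mean signal of at least 5 only (0.0529) and in a fit of SPCHΔ49 and WT alone (0.0823).

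DET2 is the steroid reductase at the entry to the brassinosteroid branch. Its signal was 34.0, 37.7 and 27.7 in SPCHΔ49 basl-2, 26.4, 30.4 and 26.2 in SPCHΔ49, and 24.2 and 22.2 in WT. All overexpressor libraries again lay above WT, by less in SPCHΔ49, and the overexpressors overlapped. DET2 averaged 33.2 ± 5.05 in SPCHΔ49 basl-2, 27.7 ± 2.37 in SPCHΔ49 and 23.2 ± 1.44 in WT. It rose in SPCHΔ49 basl-2 by 0.49 on the log2 scale (SE 0.14, limma adjusted p = 0.036), and the difference of SPCHΔ49 from WT was 0.24 (SE 0.14, adjusted p = 0.248). Without WT replicate 1 or 2 the SPCHΔ49 basl-2 call was lost (adjusted p = 0.125 and 0.195), as it was without SPCHΔ49 basl-2 replicate 1 or 2 (0.0978 and 0.0766) and SPCHΔ49 replicate 2 (0.0529). The call also missed under quantile normalization (0.0509) and in a fit of SPCHΔ49 basl-2 and WT alone (0.0731). DET2 overlaps CAC3 on the other strand by 35 bases in the RefSeq annotation of TAIR10.1, and no source used here says that the counting used strand. CAC3 (AT2G38040), a subunit of a plastid enzyme of fatty acid synthesis, had 206, 222 and 171 in SPCHΔ49 basl-2, 183, 152 and 137 in SPCHΔ49, and 153 and 149 in WT. In the same annotation ROT3 overlaps AT4G36370, which was not analysed here, by 83 bases on the other strand. CPD overlaps MOS7 by 20 bases on the other strand, and DWF1 overlaps AT3G19810 by 20 bases on the same strand.

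CPD had the clearest difference of the 9 genes. It encodes a cytochrome P450 of the steps between campesterol and the active hormone. Its signal was 662, 765 and 489 in SPCHΔ49 basl-2, 541, 466 and 356 in SPCHΔ49, and 273 and 286 in WT. Every overexpressor library exceeded WT, with the highest values in SPCHΔ49 basl-2 replicates 1 and 2, and the overexpressors overlapped only in that SPCHΔ49 basl-2 replicate 3 was below SPCHΔ49 replicate 1. Mean CPD was 639 ± 139 in SPCHΔ49 basl-2, 228% of WT, and 454 ± 92.9 in SPCHΔ49, 162% of WT, against 279.6 ± 9.25 in WT. CPD rose in SPCHΔ49 basl-2 by 1.17 on the log2 scale (SE 0.23, limma adjusted p = 0.00876). The difference of SPCHΔ49 from WT was 0.68 (SE 0.23) and missed the threshold (adjusted p = 0.068), though it passed under quantile normalization (0.96, adjusted p = 0.00648). Without WT replicate 1 or 2 the SPCHΔ49 basl-2 call had an adjusted p of 0.077 and 0.0656, and it held without any other single library.

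DWF4, the P450 often described as the rate-limiting step of the pathway, showed no such difference. Its signal was 13.7, 19.7 and 10.9 in SPCHΔ49 basl-2, 16.6, 12.2 and 10.9 in SPCHΔ49, and 17.8 and 12.9 in WT. The 3 genotypes overlapped, and replicates of one genotype differed more than the genotype means did. The log2 differences from WT were -0.08 in SPCHΔ49 basl-2 (95% interval -0.72 to 0.57, limma adjusted p = 0.852) and -0.20 in SPCHΔ49 (-0.85 to 0.44, adjusted p = 0.616). These intervals leave room for a change in either direction.

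ROT3 was the only one of the 9 genes that fell in a comparison. It encodes a P450 of the later hydroxylation steps and is known for its effect on leaf length. Its signal was 6.99, 6.16 and 13.0 in SPCHΔ49 basl-2, 3.24, 5.31 and 9.32 in SPCHΔ49, and 19.0 and 18.9 in WT. All 6 overexpressor libraries lay below WT, and the highest library of each overexpressor was its replicate 3. Average ROT3 signal was 8.70 ± 3.71 in SPCHΔ49 basl-2 and 5.96 ± 3.09 in SPCHΔ49, 46.0% and 31.5% of the WT mean of 18.9 ± 0.0796. ROT3 fell by 1.61 on the log2 scale in SPCHΔ49 (SE 0.41, limma adjusted p = 0.025), and the difference of SPCHΔ49 basl-2 from WT was -1.10 (SE 0.41, adjusted p = 0.0728). Leaving out WT replicate 1 or 2 gave the SPCHΔ49 call an adjusted p of 0.142 and 0.137, and leaving out SPCHΔ49 replicate 1 or 2 gave 0.0553 and 0.0722. The SPCHΔ49 basl-2 difference passed with a pseudocount of 5 (-0.84, adjusted p = 0.0483). It also passed without SPCHΔ49 replicate 1 or 3 or SPCHΔ49 basl-2 replicate 3. Without SPCHΔ49 replicate 2 or SPCHΔ49 basl-2 replicate 1 or 2 it did not pass. The summed root and vascular markers were also lower in all 6 overexpressor libraries, and their part in the ROT3 difference was not tested.

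BR6OX2, the P450 oxidase that makes the last intermediates and brassinolide itself, had 9.73, 12.4 and 12.8 in SPCHΔ49 basl-2, 15.2, 14.6 and 6.71 in SPCHΔ49, and 16.3 and 12.9 in WT. The SPCHΔ49 basl-2 libraries were all below WT by a small margin, and SPCHΔ49 had replicates 1 and 2 between the WT libraries and, in replicate 3, the lowest value of all 8 libraries. The log2 differences from WT, -0.30 in SPCHΔ49 basl-2 and -0.31 in SPCHΔ49 (SE 0.33 for each), did not pass in limma (adjusted p = 0.501 and 0.513). Without SPCHΔ49 replicate 3 the SPCHΔ49 difference was 0.04.

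BAS1 is a P450 that inactivates brassinosteroids by hydroxylation, and the hormone raises its transcript. It had 17.3, 23.8 and 12.8 in SPCHΔ49 basl-2, 20.6, 14.0 and 6.74 in SPCHΔ49, and 9.63 and 11.4 in WT. All SPCHΔ49 basl-2 libraries exceeded WT, while SPCHΔ49 spanned a range from below WT to nearly the highest value. The log2 difference from WT was 0.69 in SPCHΔ49 basl-2 (SE 0.43, limma adjusted p = 0.248) and 0.25 in SPCHΔ49 (SE 0.43, adjusted p = 0.699), with 95% intervals of -0.31 to 1.68 and -0.75 to 1.25.

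The receptor BRI1 had 67.2, 77.9 and 66.2 in SPCHΔ49 basl-2, 75.6, 59.3 and 46.4 in SPCHΔ49, and 51.7 and 45.8 in WT. SPCHΔ49 basl-2 was above WT throughout, and SPCHΔ49 replicate 3 fell between the WT libraries. BRI1 averaged 70.4 ± 6.46 in SPCHΔ49 basl-2, 60.4 ± 14.6 in SPCHΔ49 and 48.8 ± 4.22 in WT. The log2 difference from WT of 0.52 in SPCHΔ49 basl-2 (SE 0.19) missed the threshold in limma (adjusted p = 0.0763), and that of SPCHΔ49 was 0.28 (SE 0.19, adjusted p = 0.326). In a fit of SPCHΔ49 basl-2 and WT alone BRI1 passed (adjusted p = 0.0341).

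BIN2, the kinase that BRI1 signalling turns off, had 135, 173 and 138 in SPCHΔ49 basl-2, 153, 115 and 99.1 in SPCHΔ49, and 120.4 and 124 in WT. SPCHΔ49 basl-2 lay above WT by a narrow margin, and SPCHΔ49 lay on both sides of it with nearly the same mean. BIN2 averaged 149 ± 21.3 in SPCHΔ49 basl-2, 122 ± 27.7 in SPCHΔ49 and 122 ± 2.65 in WT. The log2 difference from WT was 0.27 in SPCHΔ49 basl-2 (95% interval -0.18 to 0.72, limma adjusted p = 0.306) and -0.02 in SPCHΔ49 (-0.47 to 0.43, adjusted p = 0.947), where it was 0.12 under quantile normalization. The BIN2 values are uncertain in 2 ways. In the RefSeq annotation of TAIR10.1 BIN2 overlaps AT4G18720, which was not analysed here, by 1284 of its 5091 bases on the same strand. BIN2 also shares sequence with the GSK3 genes ATSK22 and ATSK23, and kallisto, which the submitters' processing notes name, divides reads that match several transcripts by estimate.

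**Figure D2:**
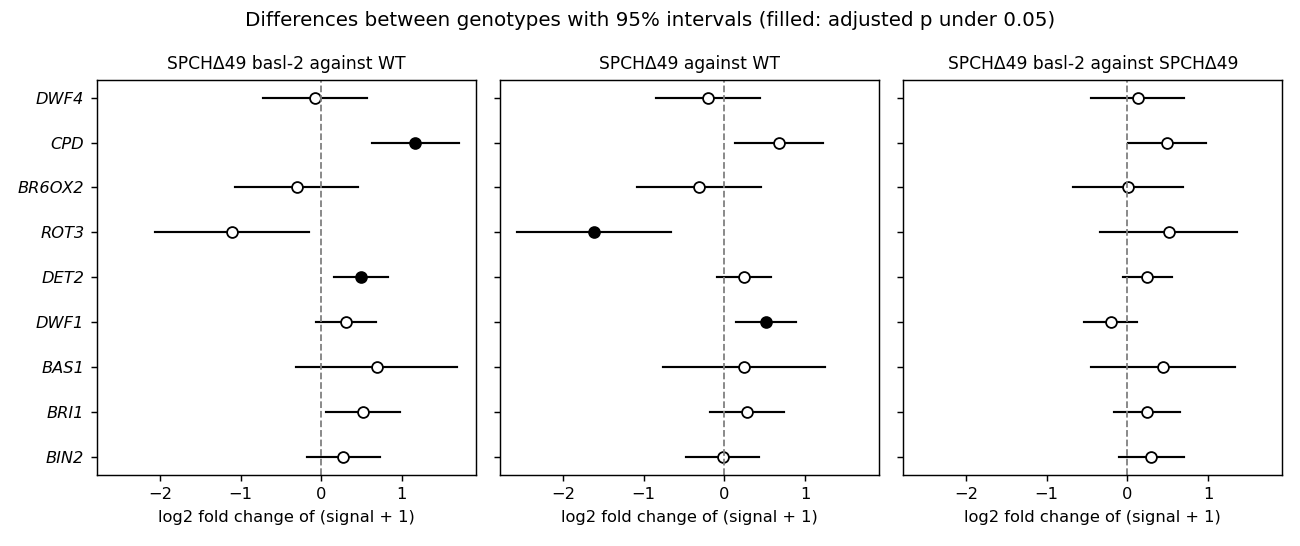
Differences on the log2(signal + 1) scale (x axis) for the 9 genes in the 3 comparisons, with 95% intervals of the limma fit and filled points where the adjusted p is under 0.05. CPD (1.17) and DET2 (0.49) are filled for SPCHΔ49 basl-2 against WT, ROT3 (-1.61) and DWF1 (0.52) for SPCHΔ49 against WT, and no point for SPCHΔ49 basl-2 against SPCHΔ49.

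For SPCHΔ49 basl-2 against WT, 2 of the 9 genes rose and 0 fell, where 34.3% of all listed genes were called, 12.6% up and 21.6% down. Under quantile normalization 33.9% of all genes were called, 16.6% up and 17.3% down, and the 2 genes that rose were CPD and DWF1. The libraries did not overlap for 8 of the 9 genes, 6 above and 2 below WT, against 62.0% of all genes, 26.5% above and 35.5% below. The median log2 difference of the 9 genes was 0.31, beside -0.06 over all genes. Calls numbered 0 without WT replicate 1 or 2, where 8.96% and 9.66% of all genes were called, 1 without SPCHΔ49 replicate 2 or SPCHΔ49 basl-2 replicate 1 or 2, and 4 without SPCHΔ49 replicate 1 or 3. Over all genes, 5074, 4350 and 5416 were called in the settings with 1 call, and 6396 and 6403 in those with 4 (6458 with all libraries). Leaving out a WT library leaves WT with 1 library, which is assumed to vary like the others.

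For SPCHΔ49 against WT, 1 gene rose and 1 fell, where 27.2% of all listed genes were called, 9.90% up and 17.3% down. Under quantile normalization 29.1% were called, 14.7% up and 14.4% down, and CPD passed beside DWF1 and ROT3. The libraries did not overlap for 4 of the 9 genes, 3 above and 1 below WT, against 60.9% of all genes, 28.2% above and 32.7% below. The median log2 difference was 0.24, beside -0.01 over all genes. There were 0 calls without WT replicate 1 or 2 (6.18% and 6.27% of all genes called) and without SPCHΔ49 replicate 1 or 2, 1 without SPCHΔ49 basl-2 replicate 1 or 2, and 3 without SPCHΔ49 replicate 3. Over all genes, 3710 and 3198 were called without SPCHΔ49 replicate 1 or 2. The numbers were 4260 and 5579 without SPCHΔ49 basl-2 replicate 1 or 2, and 4846 without SPCHΔ49 replicate 3 (5120 with all libraries). With all libraries, the share of the 9 genes that was called was no higher than that of all genes in both comparisons. The comparisons share their WT libraries, so they are not independent of each other.

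For SPCHΔ49 basl-2 against SPCHΔ49, 0 of the 9 genes passed in limma, where 5.41% of all genes were called. At an unadjusted p under 0.05 there was 1 gene, CPD, against 21.9% of all genes. CPD differed by 0.49 on the log2 scale (95% interval 0.0036 to 0.97, adjusted p = 0.225), a mean of 639 in SPCHΔ49 basl-2 against 454 in SPCHΔ49. For 8 of the 9 genes the difference was above 0, between 0.01 for BR6OX2 and 0.51 for ROT3, and for DWF1 it was -0.21 (95% interval -0.54 to 0.12). The libraries overlapped for all 9 genes, while 25.7% of all genes did not overlap. The median log2 difference was 0.25, beside -0.03 over all genes. The interval for BRI1 ran from -0.17 to 0.65 and that for BIN2 from -0.11 to 0.70. The overexpressors differed 6.12-fold in mean SPCH signal, and an effect of that level and one of basl-2 cannot be told apart.

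Replicate 3 was the lowest library of its overexpressor for most of these genes. In SPCHΔ49 replicate 3 was the lowest library for 8 of the 9 genes and the highest for ROT3. In SPCHΔ49 basl-2 replicate 3 was the lowest for 6 genes, DWF4, CPD, DET2, DWF1, BAS1 and BRI1, and the highest for BR6OX2 and ROT3. For several genes it lay close to another replicate, as in SPCHΔ49 basl-2 for BRI1 and BIN2 and in SPCHΔ49 for DET2. Total signal was also lowest in replicate 3 of each overexpressor, 959355 in SPCHΔ49 basl-2 and 852202 in SPCHΔ49. The same libraries had the highest median signal of their genotype, 13.4 and 13.6, and the fewest genes at 0, 141 and 146. Without both of these libraries, a setting chosen after seeing the data, 5 of the 9 genes passed for SPCHΔ49 basl-2 against WT: CPD, DET2, BRI1 and BAS1 rose and ROT3 fell, where 41.7% of all genes were called, 16.8% up and 24.9% down. For SPCHΔ49 against WT 3 passed, DWF1 and CPD up and ROT3 down, where 32.9% of all genes were called, 13.3% up and 19.6% down. For SPCHΔ49 basl-2 against SPCHΔ49 there were 0, where 3.93% were called.

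**Figure D3:**
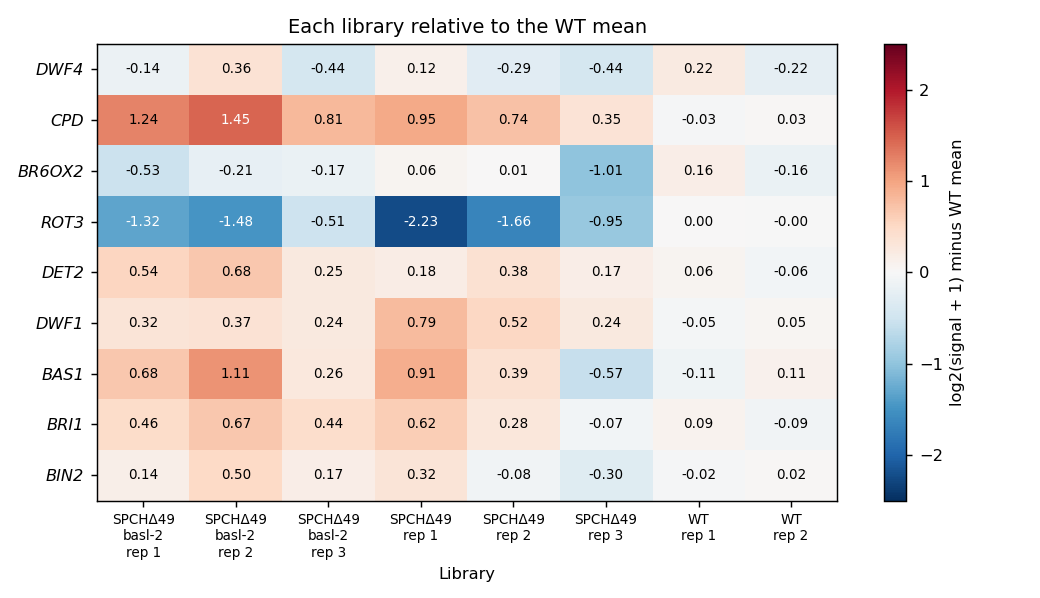
Difference of each library from the WT mean on the log2(signal + 1) scale (colour and printed values), with the 9 genes in rows and the 8 libraries in columns. CPD is positive in all 6 overexpressor libraries, from 0.35 to 1.45, and ROT3 is negative in all 6, from -2.23 to -0.51, with the value nearest to WT in replicate 3 of each overexpressor.

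The rest of the pathway was described through 7 lists with 70 genes, of which 64 were listed. Among 11 sterol synthesis genes, not all of them on the route to campesterol, 4 rose and 1 fell in SPCHΔ49 basl-2 against WT. The list median was 0.19, and of all genes 12.6% rose and 21.6% fell. The number that rose dropped to 0 with either WT library left out, to 1 with SPCHΔ49 replicate 2 left out or SPCHΔ49 basl-2 replicate 1 left out, and to 2 when SPCHΔ49 basl-2 replicate 2 was dropped. Calls over all genes, in either direction, dropped too, from 6458 to 5074, 4350 and 5416 without these overexpressor libraries. They dropped further without a WT library. SMT1, the first sterol methyltransferase of the route, had 318 ± 94.1 in SPCHΔ49 basl-2, 193 ± 37.0 in SPCHΔ49 and 137 ± 13.6 in WT. It rose by 1.17 on the log2 scale in SPCHΔ49 basl-2 (limma adjusted p = 0.0113), and the call was lost without WT replicate 1 or 2 (0.0672 and 0.094). SMT3, a later methyltransferase with a close copy, SMT2, averaged 109.6 ± 27.5 in SPCHΔ49 basl-2, 92.0 ± 41.2 in SPCHΔ49 and 42.4 ± 9.01 in WT, and rose by 1.34 in SPCHΔ49 basl-2 (limma adjusted p = 0.0295). It was lost without WT replicate 1 or 2, SPCHΔ49 replicate 2 or SPCHΔ49 basl-2 replicate 1 or 2 (adjusted p 0.0531 to 0.178). In SPCHΔ49 1 of the 11 rose and 1 fell, with a list median of -0.13, where 9.90% of all genes rose and 17.3% fell. DWF5, another sterol reductase, rose in both, by 0.37 each (limma adjusted p = 0.0369 in SPCHΔ49 basl-2 and 0.0411 in SPCHΔ49). The DWF5 calls were lost without WT replicate 1 or 2, SPCHΔ49 replicate 2 or 3 or SPCHΔ49 basl-2 replicate 1, and that in SPCHΔ49 basl-2 also without its replicate 3 (adjusted p 0.0502 to 0.232). FK, a sterol reductase too, was the gene that fell in both, with 8.86 ± 0.435 in SPCHΔ49 basl-2, 9.62 ± 0.640 in SPCHΔ49 and 13.8 ± 2.19 in WT (limma adjusted p = 0.0126 and 0.0309). The FK call in SPCHΔ49 basl-2 was lost without WT replicate 1 (0.108), and that in SPCHΔ49 without WT replicate 1 or 2, any SPCHΔ49 library or SPCHΔ49 basl-2 replicate 1 (adjusted p 0.0525 to 0.223).

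Among 7 other genes of brassinosteroid synthesis and inactivation, 0 rose and 2 fell in SPCHΔ49 basl-2, and 0 rose and 3 fell in SPCHΔ49, against WT. Of all genes 12.6% rose and 21.6% fell in SPCHΔ49 basl-2, and 9.90% rose and 17.3% fell in SPCHΔ49. BAT1, an acyltransferase that inactivates brassinosteroids, had 2.32, 4.47 and 1.95 in SPCHΔ49 basl-2, 3.15, 2.40 and 1.41 in SPCHΔ49, and 17.0 and 22.2 in WT. All 6 overexpressor libraries were far below WT. BAT1 fell by 2.44 on the log2 scale in SPCHΔ49 basl-2 and fell by 2.66 in SPCHΔ49 (limma adjusted p = 0.00179 and 0.00126), and both calls held without any single library. BIA1, another acyltransferase of this kind, had 0.0875, 0 and 0.360 in SPCHΔ49 basl-2, 0.0707, 0.141 and 0.180 in SPCHΔ49, and 2.73 and 1.54 in WT, and fell in both (limma adjusted p = 0.00213 and 0.00214). Without a WT library BIA1 was left out by the filter on low signal. BIA1 was under 1 in every overexpressor library and is listed through WT alone, so the way genes were listed favoured its fall. It is among the falls counted above in both comparisons. CYP90D1, the P450 that overlaps in function with ROT3, had 4.15 ± 1.05 in SPCHΔ49 basl-2, 2.17 ± 0.226 in SPCHΔ49 and 5.18 ± 0.80 in WT. It fell by 0.96 in SPCHΔ49 (limma adjusted p = 0.0101), a call lost without WT replicate 1 or 2 (0.109 and 0.0568).

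Of 10 genes for receptors, co-receptors and proteins that act with them, 0 rose and 2 fell in SPCHΔ49 basl-2 against WT. In SPCHΔ49 against WT 1 rose and 1 fell. Among all genes 12.6% rose and 21.6% fell in SPCHΔ49 basl-2, and 9.90% rose and 17.3% fell in SPCHΔ49. BRL2, a relative of BRI1 known from vascular cells, had 5.04, 5.17 and 4.92 in SPCHΔ49 basl-2, 5.42, 5.36 and 5.54 in SPCHΔ49, and 11.9 and 10.6 in WT. The overexpressors were close to each other and at less than the level of either WT library. BRL2 fell by 1.01 in SPCHΔ49 basl-2 and by 0.92 in SPCHΔ49 (log2, limma adjusted p = 0.000545 and 0.000827), also without any single library. Of the 10 vascular markers 6 fell in SPCHΔ49 basl-2 and 7 in SPCHΔ49, and their part in this difference was not tested. The co-receptor SERK1 had 3.38 ± 0.346 in SPCHΔ49 basl-2, 5.70 ± 0.0594 in SPCHΔ49 and 5.94 ± 0.102 in WT. It fell in SPCHΔ49 basl-2 by 0.67 against WT and by 0.62 against SPCHΔ49 (log2, limma adjusted p = 0.00461 and 0.0191). The difference from WT was lost without WT replicate 2 (0.052). The difference from SPCHΔ49 was lost without any one SPCHΔ49 library or SPCHΔ49 basl-2 replicate 1 or 2 (adjusted p 0.0509 to 0.0992), and under quantile normalization (-0.46, adjusted p = 0.076). SERK2, a close relative of SERK1, rose by 0.49 in SPCHΔ49, with 21.5 ± 1.21 in SPCHΔ49 basl-2, 25.3 ± 3.65 in SPCHΔ49 and 17.6 ± 0.60 in WT (limma adjusted p = 0.0286). It was lost without WT replicate 1 or 2 or SPCHΔ49 replicate 1 or 2 (adjusted p 0.0564 to 0.169) and in a fit of SPCHΔ49 and WT alone (0.0526).

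Below the receptor, 2 of 6 listed cytoplasmic kinases and phosphatases rose and 1 fell in SPCHΔ49 basl-2 against WT, and 1 fell in SPCHΔ49. Of all genes 12.6% rose and 21.6% fell in SPCHΔ49 basl-2, and 9.90% rose and 17.3% fell in SPCHΔ49. BSK2, a kinase that BRI1 phosphorylates, had 4.25 ± 0.0827 in SPCHΔ49 basl-2, 6.06 ± 0.644 in SPCHΔ49 and 8.53 ± 0.952 in WT. Its fall of 0.86 (log2) in SPCHΔ49 basl-2 (limma adjusted p = 0.0026) held without any single library. Its fall of 0.43 in SPCHΔ49 (adjusted p = 0.0395) was lost without WT replicate 1 or 2, SPCHΔ49 replicate 2 or 3 or SPCHΔ49 basl-2 replicate 1 (adjusted p 0.0679 to 0.248) and under quantile normalization (0.0915), among others. The genes that rose in SPCHΔ49 basl-2 were BSK1, a kinase of the same family (0.30, adjusted p = 0.0219), and BSL1, a phosphatase (0.46, adjusted p = 0.0374). BSK1 was lost without WT replicate 1 or 2 or SPCHΔ49 basl-2 replicate 1 (adjusted p 0.0606 to 0.161), and BSL1 without WT replicate 1 or 2, SPCHΔ49 replicate 2 or 3 or SPCHΔ49 basl-2 replicate 1 or 3 (0.0508 to 0.233). Of the 9 other GSK3 kinases 2 fell in SPCHΔ49 basl-2 and 1 rose in SPCHΔ49, shares near the 21.6% and 9.90% of all genes. ATSK13, one of the BIN2 relatives, had 12.5, 11.3 and 9.38 in SPCHΔ49 basl-2, 25.2, 24.8 and 23.0 in SPCHΔ49, and 20.6 and 25.2 in WT. The SPCHΔ49 basl-2 libraries stood apart from all the others, and SPCHΔ49 overlapped with WT. ATSK13 fell in SPCHΔ49 basl-2 by 0.99 against WT and by 1.08 against SPCHΔ49 (log2, limma adjusted p = 0.00246 and 0.00709). The difference from WT held without any single library, and that from SPCHΔ49 had an adjusted p of 0.0509 without SPCHΔ49 replicate 2. ATSK12 fell by 0.32 in SPCHΔ49 basl-2 (adjusted p = 0.0183), lost without WT replicate 1 or 2 or SPCHΔ49 basl-2 replicate 1 (0.0514 to 0.145). ATSK11 rose by 0.37 in SPCHΔ49 (adjusted p = 0.0155), lost without WT replicate 1 or 2 or SPCHΔ49 replicate 2 (0.0531 to 0.153).

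The list of brassinosteroid transcription factors had the most calls among the 7. It holds BZR1, BES1, their relatives and their BIM partners, and also IBH1 and MYBL2, which are not of the BZR1 family. In SPCHΔ49 basl-2 8 of 11 rose and 0 fell, and in SPCHΔ49 6 rose and 1 fell, with list medians of 0.59 and 0.50 beside -0.06 and -0.01 over all genes. Of all genes 12.6% rose and 21.6% fell in SPCHΔ49 basl-2, and 9.90% rose and 17.3% fell in SPCHΔ49. Under quantile normalization the counts were the same, where 16.6% and 14.7% of all genes rose. In SPCHΔ49 basl-2 the number that rose dropped to 0 when WT replicate 1 was left out, to 2 with WT replicate 2 left out, to 5 with SPCHΔ49 replicate 2 left out and to 4 with SPCHΔ49 basl-2 replicate 1 left out. In SPCHΔ49 it was 0 without either WT library, and 4 without SPCHΔ49 replicate 1 or 2 or SPCHΔ49 basl-2 replicate 1. Calls over all genes, in either direction, dropped in these settings too, most without a WT library. In SPCHΔ49 basl-2 they were 5074 without SPCHΔ49 replicate 2 and 4350 without SPCHΔ49 basl-2 replicate 1 (6458 with all). In SPCHΔ49 they were 3710 and 3198 without SPCHΔ49 replicate 1 or 2, and 4260 without SPCHΔ49 basl-2 replicate 1 (5120 with all). Without replicate 3 of both overexpressors 7 rose in each, where 16.8% of all genes rose in SPCHΔ49 basl-2 and 13.3% in SPCHΔ49. BZR1 had 32.7, 39.4 and 39.3 in SPCHΔ49 basl-2, 42.4, 37.6 and 37.5 in SPCHΔ49, and 25.0 and 23.6 in WT. The overexpressors overlapped with each other and lay above WT throughout. BZR1 rose by 0.59 in SPCHΔ49 basl-2 and by 0.67 in SPCHΔ49 (log2, limma adjusted p = 0.00823 and 0.00572), and both calls were lost without WT replicate 1 or 2 (adjusted p 0.0558 to 0.078). BIM2 and BIM3 encode helix-loop-helix partners of BES1. BIM3 rose by 0.56 in SPCHΔ49 basl-2 (limma adjusted p = 0.00572), lost without WT replicate 1 (0.058), and BIM2 rose by 0.72 in SPCHΔ49 (adjusted p = 0.00908), lost without WT replicate 1 or 2 (0.0971 and 0.052). The BZR1 relative BEH4 averaged 32.0 ± 2.11 in SPCHΔ49 basl-2, 28.6 ± 1.97 in SPCHΔ49 and 19.9 ± 1.33 in WT and rose in both (limma adjusted p = 0.00349 and 0.012). The BEH4 calls were lost without WT replicate 1 (0.0508 in SPCHΔ49 basl-2 and 0.119 in SPCHΔ49), and that in SPCHΔ49 also without WT replicate 2 (0.0647). BES1, the closest relative of BZR1, had 84.0, 95.9 and 79.0 in SPCHΔ49 basl-2, 61.6, 52.8 and 51.7 in SPCHΔ49, and 74.2 and 77.1 in WT. BES1 was thus lowest in SPCHΔ49, with no overlap with either other genotype. BES1 fell by 0.45 in SPCHΔ49 against WT (limma adjusted p = 0.0287), and it was higher by 0.63 in SPCHΔ49 basl-2 than in SPCHΔ49 (adjusted p = 0.0205). The first of these was lost without WT replicate 1 or 2, SPCHΔ49 replicate 2 or 3 or SPCHΔ49 basl-2 replicate 1, and the second without those libraries or SPCHΔ49 basl-2 replicate 2 (adjusted p 0.0515 to 0.174 over both). In a fit of the overexpressors alone the second had an adjusted p of 0.0517.

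Of 10 listed genes that brassinosteroids induce, 1 rose and 0 fell in SPCHΔ49 basl-2, and 1 rose and 1 fell in SPCHΔ49, against WT. The shares of all genes were 12.6% up and 21.6% down in SPCHΔ49 basl-2, and 9.90% up and 17.3% down in SPCHΔ49. Without replicate 3 of both overexpressors 3 rose and 1 fell in SPCHΔ49 basl-2, where 16.8% of all genes rose and 24.9% fell. In SPCHΔ49 2 then rose and 3 fell, where 13.3% of all genes rose and 19.6% fell. TCH4, a cell wall enzyme gene that touch and other signals also induce, had 169, 516 and 235 in SPCHΔ49 basl-2, 236, 95.2 and 65.6 in SPCHΔ49, and 27.3 and 21.1 in WT. Every overexpressor library was above WT, with a wide spread among replicates. TCH4 rose by 3.46 in SPCHΔ49 basl-2 and by 2.20 in SPCHΔ49 (log2, limma adjusted p = 0.00563 and 0.0351). The first call was lost without WT replicate 2 (0.059), and the second without WT replicate 1 or 2 or SPCHΔ49 replicate 1 or 2 (adjusted p 0.0662 to 0.19). EXPA5, an expansin that loosens cell walls, had 12.7 ± 6.19 in SPCHΔ49 basl-2, 7.66 ± 2.93 in SPCHΔ49 and 21.0 ± 2.02 in WT. It fell by 1.40 in SPCHΔ49 (limma adjusted p = 0.0386), a call lost without WT replicate 1 or 2, SPCHΔ49 replicate 1 or 2 or SPCHΔ49 basl-2 replicate 1 (adjusted p 0.0592 to 0.196). In SPCHΔ49 basl-2 against SPCHΔ49 0 of the 10 passed in limma, 2 had an unadjusted p under 0.05, and the log2 difference was above 0 for all 10, where 45.8% of all genes were above 0. Their median was 0.63, beside -0.03 over all genes, and 0.38 without SPCHΔ49 replicate 3 and 0.39 without SPCHΔ49 basl-2 replicate 2, with 9 of 10 above 0 in each. The 8 leaf mesophyll markers were also all above 0 in this comparison, with a median of 0.40 and 0 called, and their part in the result was not tested.

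**Figure D4:**
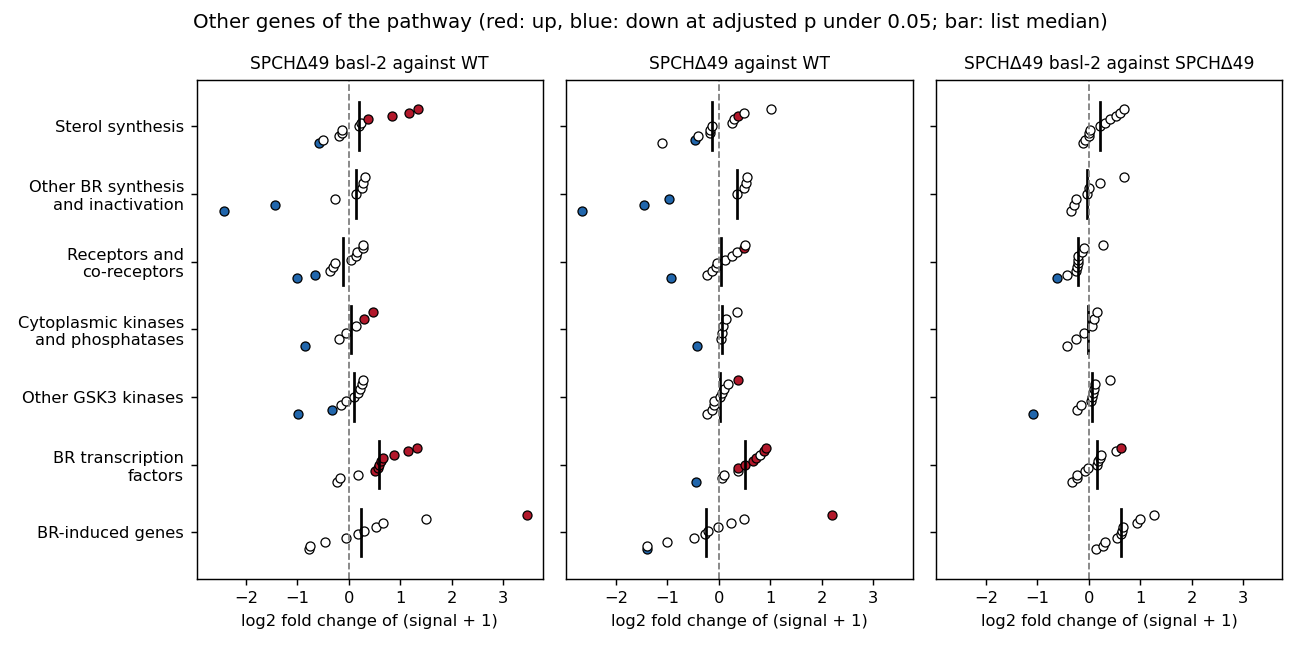
Differences on the log2(signal + 1) scale (x axis) for the 64 listed genes of 7 brassinosteroid (BR) lists in the 3 comparisons, one point per gene, red where it rose and blue where it fell at an adjusted p under 0.05, with a bar at each list's median. The transcription factors have 8 red points for SPCHΔ49 basl-2 against WT, and all 10 BR-induced genes lie right of 0 for SPCHΔ49 basl-2 against SPCHΔ49.

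The pattern of CPD, the gene with the lowest adjusted p of the 9, was set against the 14190 genes with a mean signal of at least 5 over the 8 libraries on the log2(signal + 1) scale. The genes most like it were ARFA1E (AT3G62290, Pearson r = 0.997), AT4G21450 (0.997), VIP1 (AT1G43700, 0.994), AT5G57565 (0.994) and WRI4 (AT1G79700, 0.993). WRI4 had 235, 270.1 and 140 in SPCHΔ49 basl-2, 173, 124 and 91.7 in SPCHΔ49, and 46.7 and 53.5 in WT. The likeness includes both the step between genotypes and the order of replicates, since SPCHΔ49 basl-2 replicate 2 was highest and the WT libraries were lowest for each of these genes.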

How the data were processed

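Total RNA came from a Qiagen plant kit and the libraries from a TruSeq kit, per the labels. The submitters' processing notes name Trimmomatic 0.38 for trimming, kallisto 0.44.0 for quantification and sleuth, and no source used here gives the build or annotation. The deposited values, called TPM in the file headers, were handled as a signal, because some library totals, up to 1075376, exceed the fixed total of TPM. The authors rescaled them in some way that is not stated, and read depth is unknown. Each of the 18855 genes has a signal of 1 or more in every library of at least 1 genotype, so the deposited table was already filtered.

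Tests used limma 3.58.1 (R 4.3.3) on log2 of the signal plus 1, with an intensity trend and 1 mean per genotype over the 8 libraries. Requiring a signal of 1 in 2 libraries or more removed 0 genes. The script was tested on simulated data. Genes, pathway lists and alternatives were chosen with earlier results of these data known, and no list was tested as a whole. Named were all 10 genes and, per list and comparison, at most the 3 rising and 3 falling called genes with the lowest adjusted p. The labels do not say whether replicate numbers pair the libraries. Overlapping genes were read from the RefSeq annotation of TAIR10.1.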

Additional observations from a re-analysis of the deposited data

How the results depend on the processing

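Of the calls among the 9 genes, the number for SPCHΔ49 basl-2 against SPCHΔ49 was 0 under every alternative. For SPCHΔ49 basl-2 against WT it was 5 with the replicate block and 5 without replicate 3 of both overexpressors, and 0 to 4 with 1 library left out. For SPCHΔ49 against WT it was 1 under median ratio scaling, with a mean signal of at least 5 and with only the compared genotypes, 3 with the replicate block and 0 to 3 with 1 library left out. With 1 library left out, all genes called numbered 1624 to 7052 for SPCHΔ49 basl-2 against WT (6458 with all), 1121 to 5636 for SPCHΔ49 against WT (5120) and 151 to 1242 for SPCHΔ49 basl-2 against SPCHΔ49 (1020). The last was 671 with a mean signal of at least 5 and 485 with only the compared genotypes. With the replicate block, all genes called rose to 8045 for SPCHΔ49 basl-2 against WT and 6446 for SPCHΔ49 against WT. For SPCHΔ49 against WT they were 5098 under median ratio scaling and 5273 with only the compared genotypes. With a mean signal of at least 5 they were 3453 of 14199 for that comparison. The cause of these changes was not tested. The replicate numbers come from the labels, and deviations of same-numbered overexpressor libraries correlated at -0.17, -0.09 and 0.76. Whether the numbers mark pairs is unknown, so the block is not read as a paired analysis.

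Signs turned only for differences that did not pass. Without replicate 3 of both overexpressors DWF4 was 0.11 in SPCHΔ49 basl-2 against WT, BIN2 0.12 and BR6OX2 0.037 in SPCHΔ49 against WT, and BR6OX2 -0.41 in SPCHΔ49 basl-2 against SPCHΔ49. With the replicate block DWF4 was 0.076 in SPCHΔ49 basl-2 and BIN2 0.073 in SPCHΔ49, against WT. Under quantile normalization BIN2 was 0.12 in SPCHΔ49 and BASL 0.10 in SPCHΔ49 basl-2, against WT, and with a pseudocount of 5 BR6OX2 was -0.0088 in SPCHΔ49 basl-2 against SPCHΔ49. With 1 library left out, DWF4 ran from -0.29 to 0.14 in SPCHΔ49 basl-2 and from -0.42 to 0.013 in SPCHΔ49, against WT, and from -0.089 to 0.31 between the overexpressors. BR6OX2 ran from -0.50 to 0.037 in SPCHΔ49 against WT and from -0.34 to 0.20 between the overexpressors, BAS1 from -0.089 to 0.65 and BIN2 from -0.19 to 0.12 in SPCHΔ49 against WT.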

Other observations

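Ratios of signals within a library do not depend on how that library was scaled as a whole. The ratios below were chosen after the values were seen and are given with no test. CPD to DWF1 was 1.82, 2.04 and 1.43 in SPCHΔ49 basl-2, 1.08, 1.12 and 1.04 in SPCHΔ49, and 0.972 and 0.955 in WT. The 3 genotypes did not overlap in this ratio. CPD to DWF4 was 48.4, 38.8 and 44.9 in SPCHΔ49 basl-2, 32.5, 38.1 and 32.6 in SPCHΔ49, and 15.3 and 22.1 in WT, again without overlap. CPD to ROT3 was 94.7, 124 and 37.8 in SPCHΔ49 basl-2, 167, 87.7 and 38.2 in SPCHΔ49, and 14.4 and 15.2 in WT. In this ratio the overexpressors overlapped with each other and not with WT, and replicate 3 of each was nearest to WT.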
